A study of Mus musculus with 18 samples.

Results

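Cell cycle and DNA replication genes were followed as a group of 40 listed genes, chosen by name and with earlier results of these data known. Of these, 39 were among the 16248 genes of the expression table and 1 (Kif11) was not, so its expression was not analysed here. The list spans G1 cyclins and their kinase (4 genes), licensing factors and the replicative helicase (9 genes), the sliding clamp and nucleotide synthesis (4 genes), mitotic entry (8 genes), chromosomes and spindle (12 genes of 13 listed) and exit from mitosis (2 genes). Expression was measured by bulk RNA sequencing (RNA-seq) of sorted endothelial cells (ECs), which form the inner lining of vessels, in 18 libraries of 6 groups with 3 libraries each. All mice were of the FVB strain, and the tissues were wild type mammary fat pad (normal ECs), spontaneous breast tumours of MMTV-PyMT mice (MMTV-PyMT ECs) and breast tumours implanted in wild type mice (implanted ECs). Mice were injected with PBS or with cGAMP, the cyclic dinucleotide ligand of the innate immune sensor STING, and ECs were taken after 3 hours. In MMTV-PyMT mice a viral promoter drives the polyoma middle T oncogene in mammary epithelium, so the transgene is directed to the tumour cells and not to the ECs, and implanted tumours grew from such tumour cells in fat pads without the transgene. Cells were sorted as live (Sytox Green-), CD45- and CD31+ cells. According to the legends of the study the libraries of a group came from separate mice in independent experiments, but which libraries shared an experiment was not stated, and p-values measure the spread between these libraries.

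A dividing cell passes through G1, S phase, G2 and mitosis. In G1, cyclin D and cyclin E with their kinases release E2F factors from the retinoblastoma family, and E2F factors then raise the transcription of replication genes. In S phase the MCM helicase, loaded by CDC6 and started by CDC45 and the GINS complex, opens the DNA, while PCNA holds the polymerases and ribonucleotide reductase supplies nucleotides. A later wave of genes for mitosis is transcribed by FOXM1 and MYBL2 together with the MuvB complex, which binds a cell cycle homology region (CHR), often beside CCAAT boxes. With other partners, the same MuvB complex forms DREAM and holds these genes down in resting cells. Most ECs of adult vessels are quiescent, and ECs of growing tumours divide more often.

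The promoters of the list carried these elements as letters, and 6 of them are shown because their genes belong to the late and the early wave or stood out under cGAMP. RefSeq windows on build GRCm38.p6, from 250 bases before to 50 bases after a gene start, were found for 31 of the 40 listed genes. Below, 160 bases that end before the more upstream of the RefSeq and GENCODE starts are given 5′ to 3′ on the gene's own strand, with capitals for CHR letters (TTTGAA), E2F letters (TTTCCCGC, TTTCGCGC, TTTGCCGC or TTTGGCGC) and CCAAT boxes, each searched on both strands, so that the reverse complement is also in capitals and neighbouring matches can overlap. Cdc20 (activator of the anaphase promoting complex), Top2a (topoisomerase that untangles chromosomes) and Cdk1 (the mitotic kinase) belong to the late wave, Mcm5 and Mcm6 are helicase subunits of the early wave, and Cenpe is a kinetochore motor. For Top2a, Mcm5 and Mcm6 they end at the RefSeq start, and for Cdc20, Cdk1 and Cenpe the last 9, 26 and 26 bases before it are left out. They lie at chr4:118437353-118437512 (minus strand), chr11:99024190-99024349 (minus strand), chr10:69352939-69353098 (minus strand), chr8:75109349-75109508 (plus strand), chr1:128359706-128359865 (minus strand) and chr3:135212377-135212536 (plus strand).
Cdc20: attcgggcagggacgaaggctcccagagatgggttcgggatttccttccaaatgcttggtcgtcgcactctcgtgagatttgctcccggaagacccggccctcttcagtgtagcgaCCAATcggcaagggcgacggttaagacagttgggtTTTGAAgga
Top2a: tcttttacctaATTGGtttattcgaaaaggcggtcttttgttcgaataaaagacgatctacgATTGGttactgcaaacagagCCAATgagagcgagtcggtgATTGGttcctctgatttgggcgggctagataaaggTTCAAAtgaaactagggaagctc
Cdk1: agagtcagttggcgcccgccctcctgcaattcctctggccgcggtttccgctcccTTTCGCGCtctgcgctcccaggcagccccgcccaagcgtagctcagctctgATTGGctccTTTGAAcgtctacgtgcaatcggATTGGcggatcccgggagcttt
Mcm5: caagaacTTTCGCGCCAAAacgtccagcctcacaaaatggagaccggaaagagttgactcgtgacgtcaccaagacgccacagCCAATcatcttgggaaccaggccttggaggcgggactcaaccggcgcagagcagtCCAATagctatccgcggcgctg
Mcm6: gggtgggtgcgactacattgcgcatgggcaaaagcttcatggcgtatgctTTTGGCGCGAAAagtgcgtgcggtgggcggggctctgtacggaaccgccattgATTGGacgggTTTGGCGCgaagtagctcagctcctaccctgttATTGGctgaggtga
Cenpe: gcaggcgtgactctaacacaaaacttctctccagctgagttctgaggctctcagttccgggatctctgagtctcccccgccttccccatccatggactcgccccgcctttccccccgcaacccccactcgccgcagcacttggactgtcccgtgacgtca
The bases left out held a CCAAT box of Cdc20, CHR letters of Cdk1 and the CCAAT box of Cenpe, whose printed stretch had none of these letters. Over whole windows, CHR letters were present in 15 of 31 genes of the list, against 20.2% of the 27025 genes with a window, and CCAAT in 26 of 31, against 41.1%. E2F letters were found in 7 of 31, against 2.6%. By role, CHR letters were in 13 of 18 genes for mitosis and 2 of 11 genes for S phase, and E2F letters in 1 of 18 (Cdk1) and 5 of 11 (Mcm3, Mcm5, Mcm6, Mcm7 and Cdc6). Kif11, which has no expression values here, was among the 31 and the 18, and its window held CHR and CCAAT letters. The core of the interferon response element was found only in the Bub1b window among the 31, against 3.99% of all genes. A match is a description of letters and shows no binding.

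Read depth was similar, at 8916809 to 11852760 reads per library as recovered from the values, and each gene of the list rested on 3 to 2545 reads per library. Levels are FPKM (fragments per kilobase of gene and scaled library size), which can be compared between genes because they are per length. Their scaling did not follow the recovered reads. In implanted cGAMP libraries, with 10111629 to 11852760 reads, 1 read on 1 kb was worth 0.0988 to 0.1196 FPKM. In normal PBS libraries, with 9733421 to 10199754 reads, it was worth 0.0843 to 0.0923 FPKM. Differences are on the log2(FPKM + 1) scale from limma, a gene passed at an adjusted p under 0.05 over 13983 genes, and rose or fell is written only of genes that passed. For 13 of the 39 genes the filter on low values (at least 1 FPKM in at least 3 libraries) was met only through tumour libraries, so counts over the list describe genes that were expressed in tumour ECs. The 13 were Ccne1, Cdc6, Gins2, Ccnb1, Aurkb, Bub1, Birc5, Cdca8, Kif20a, Kif23, Cenpe, Cenpf and Ube2c. Replicates of a group did not have equal levels. In normal ECs, cGAMP library 2 was the highest of 3 for 36 of 39 genes, with all 22 mitotic genes among them at a median of 2.76 times the other libraries, whereas 36.9% of all genes tested were highest in it. Implanted PBS library 2 was the highest for 35 of 39 genes, at 1.39 times for the mitotic genes, and normal PBS library 2 for 31 of 39, at 1.57 times. Of all genes tested, 35.4% and 30.2% were highest in these libraries. MMTV-PyMT PBS library 1 was the lowest of 3 for 29 of 39 genes (37.4% of all genes), and library 2 of that group was the highest for 25 (33.6%).

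Markers of ECs were high in every library, with a summed level of 715 to 1731 FPKM over 8 markers, Pecam1 at 138 to 386 FPKM and Cdh5 at 265 to 782 FPKM. The sorted cells also held RNA of epithelium or tumour cells. The sum over 8 epithelial markers was 349 to 447 FPKM in normal PBS, 389 to 470 FPKM in normal cGAMP, 1033 to 1131 FPKM in MMTV-PyMT PBS, 701 to 995 FPKM in MMTV-PyMT cGAMP, 469 to 666 FPKM in implanted PBS and 289 to 642 FPKM in implanted cGAMP libraries. Among them, Epcam ranged over 54.2 to 215 FPKM and Krt8 over 56.6 to 236 FPKM, so no library was free of them. Leukocyte markers (7 of 8 in the table) summed to 17.2 to 213 FPKM, the highest being implanted cGAMP library 2, with Ptprc at 0.156 to 9.73 FPKM. Red cell markers (3 of 4 in the table) summed to 7.05 to 96.3 FPKM.

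**Figure D1:**
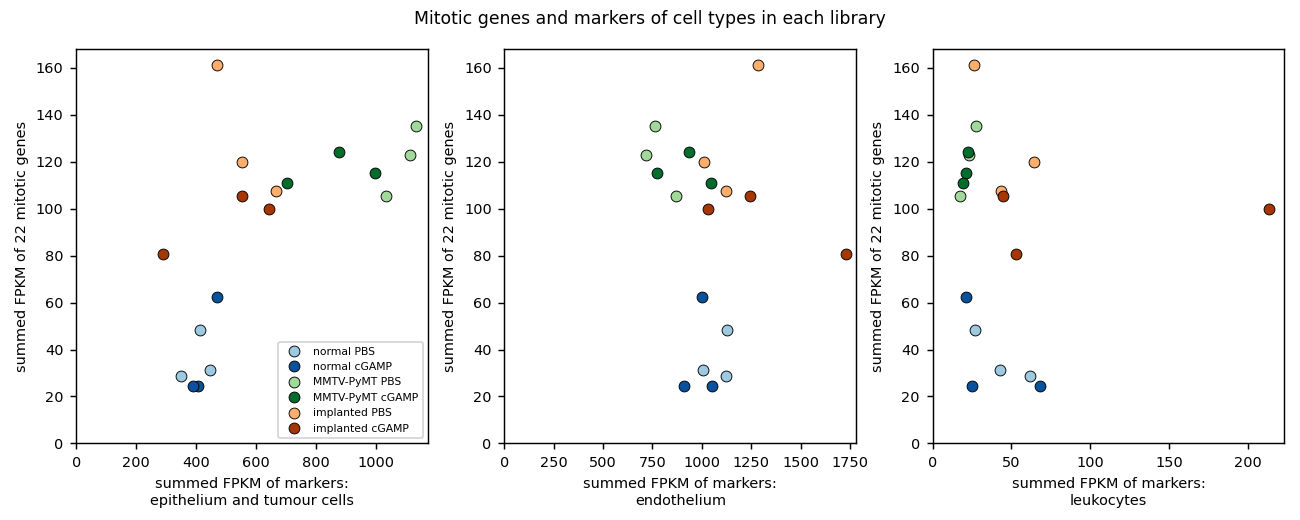
Summed FPKM of the 22 mitotic genes (vertical axis) against the summed FPKM of markers of epithelium and tumour cells, endothelium and leukocytes (horizontal axes, 1 panel each), with 1 point per library and colours for the 6 groups. Normal libraries lay at 24.5 to 62.3 FPKM of mitotic genes and tumour libraries at 80.8 to 161 FPKM. The implanted cGAMP library with the lowest epithelial sum (289 FPKM) had the lowest mitotic sum of the tumour libraries. Implanted PBS library 2, with the lowest epithelial sum of its group (469 FPKM), had the highest mitotic sum (161 FPKM).

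The first question was how far tumour ECs differed from normal ECs in these genes without cGAMP. Under PBS, 33 of 39 genes were higher in MMTV-PyMT than in normal ECs and none was lower, against 29.8% of all genes tested that were higher and 26.6% that were lower. In implanted ECs 33 of 39 were likewise higher than in normal ECs and none lower, against 25% and 23.6% of all genes. Those at least 2-fold higher numbered 19 (6.24% of all genes) and 20 (5.74%), and none was 2-fold lower (7.67% and 5.71%). The median difference of the list was 0.93 in MMTV-PyMT and 1.09 in implanted ECs on the log2(FPKM + 1) scale, beside 0.02 and 0.01 over all genes. The libraries did not overlap for 34 genes that were higher in MMTV-PyMT ECs (35.4% of all genes) and 33 in implanted ECs (31.4%), and for none that was lower (32.3% and 30.2%). All these counts include the 13 genes that met the filter only through tumour libraries, a condition that favours higher values in tumour ECs. Counts for the other 26 genes alone were not made. Both comparisons share the 3 normal PBS libraries, and in bulk ECs more cycling cells and more RNA of these genes per cell cannot be told apart.

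The summed level of the 22 genes for mitosis was 28.6 to 48.2 FPKM in normal PBS libraries, 106 to 135 FPKM in MMTV-PyMT PBS and 108 to 161 FPKM in implanted PBS libraries. Epithelial markers moved with this difference, as 6 of 8 were higher in MMTV-PyMT than in normal ECs, and 4 of 8 were higher and 1 was lower in implanted than in normal ECs. Fibroblast and mural markers went mostly the other way (4 of 8 lower and 2 higher in MMTV-PyMT, 5 lower and 1 higher in implanted ECs), at sums of 862 to 984, 368 to 433 and 436 to 445 FPKM in normal, MMTV-PyMT and implanted PBS libraries. Of the EC markers, 5 of 8 were lower in MMTV-PyMT ECs, and 3 were higher and 2 lower in implanted ECs. The part of other cells in the difference was not tested.

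**Figure D2:**
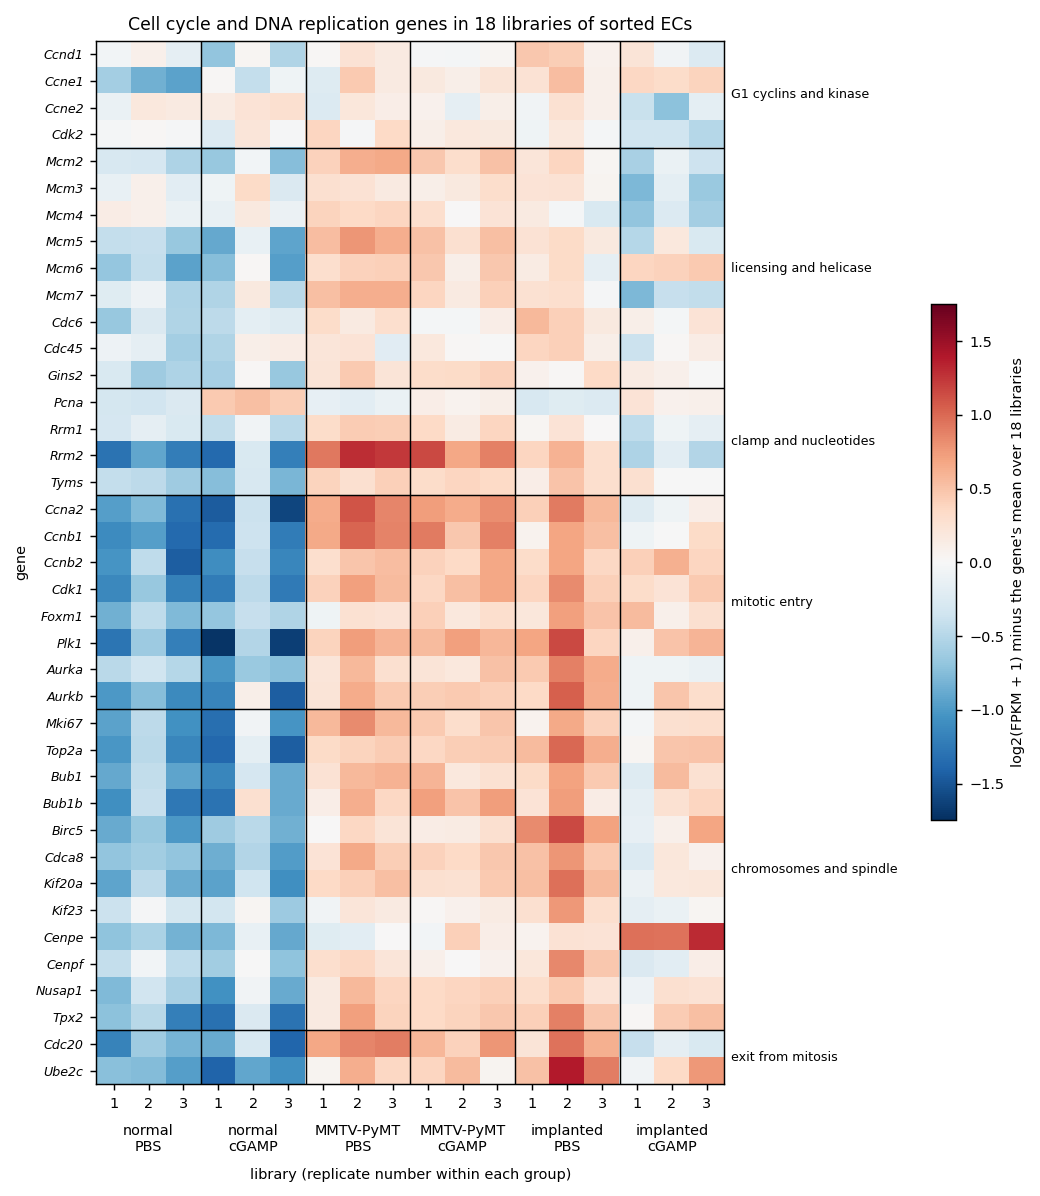
Colour map of log2(FPKM + 1) minus each gene's mean over 18 libraries, with the 39 genes by role as lines and the 18 libraries by group as columns. Normal libraries were mostly below the gene means and tumour libraries above them, and library 2 of the normal cGAMP group stood above its group for 36 of 39 genes.

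Genes of mitotic entry were all higher in both tumour types, 8 of 8 in each, with median log2 differences of 1.48 and 1.55. Of all genes tested, 29.8% and 25% were higher. Ccnb1 and Aurkb met the filter on low values only through tumour libraries, which favours higher values there. Ccnb1, the cyclin that activates CDK1 for mitosis, was at 0.763, 0.940 and 0.481 FPKM in normal ECs, 5.02, 6.70 and 5.90 FPKM in MMTV-PyMT ECs and 2.97, 5.14 and 4.46 FPKM in implanted ECs. All tumour libraries lay above all normal libraries, by 1.99 ± 0.23 (SE, limma adjusted p = 2.86e-06) in MMTV-PyMT and 1.57 ± 0.23 (SE, limma adjusted p = 3.56e-05) in implanted ECs, or 8.06 and 5.76 times by the means. Cdk1 itself was at 1.10, 1.88 and 1.01 FPKM in normal ECs, 5.07, 6.55 and 5.71 FPKM in MMTV-PyMT ECs and 4.92, 7.12 and 5.13 FPKM in implanted ECs, higher without overlap by 1.55 ± 0.20 (SE, limma adjusted p = 7.2e-06) and 1.53 ± 0.20 (SE, limma adjusted p = 9.47e-06). Ccna2, the cyclin of S phase and G2, was at 2.26, 2.73 and 1.58 FPKM in normal ECs, 9.004, 12.7 and 10.5 FPKM in MMTV-PyMT ECs and 7.52, 11.04 and 8.50 FPKM in implanted ECs. Its differences were 1.88 (limma adjusted p = 9.76e-06) and 1.65 (limma adjusted p = 4.26e-05), again without overlap. Plk1, a kinase of spindle assembly, was at 1.04, 2.19 and 1.18 FPKM in normal ECs, 5.48, 7.26 and 6.51 FPKM in MMTV-PyMT ECs and 7.01, 10.1 and 5.43 FPKM in implanted ECs, and its difference of 1.78 ± 0.27 (SE, limma adjusted p = 5.82e-05) was the largest of the list in implanted ECs. In MMTV-PyMT ECs it was 1.61 (limma adjusted p = 0.000123). Foxm1, the transcription factor of the late wave, was at 1.03, 1.67 and 1.14 FPKM in normal ECs, 2.46, 3.38 and 3.30 FPKM in MMTV-PyMT ECs and 3.16, 5.005 and 4.15 FPKM in implanted ECs, a smaller difference of 0.83 (limma adjusted p = 0.000314) and 1.16 (limma adjusted p = 1.65e-05). Ccnb2, Aurka and Aurkb, the other genes of this role, were higher by 0.80 to 1.64.

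Genes of chromosomes and spindle were higher for 11 of 12 in MMTV-PyMT ECs and 12 of 12 in implanted ECs, and both genes of mitotic exit were higher in each. Of all genes tested, 29.8% and 25% were higher. Bub1, Birc5, Cdca8, Kif20a, Kif23, Cenpe, Cenpf and Ube2c met the filter on low values only through tumour libraries. That condition favours higher values in tumour ECs. Mki67, the nuclear antigen used to count cycling cells, was at 3.22, 4.88 and 2.87 FPKM in normal ECs, 11.01, 13.3 and 11 FPKM in MMTV-PyMT ECs and 7.45, 11.8 and 9.74 FPKM in implanted ECs, with every tumour library above every normal one by 1.48 (limma adjusted p = 0.000113) and 1.20 (limma adjusted p = 0.000822). Birc5 (survivin), a subunit of the chromosomal passenger complex, was at 0.423, 0.644 and 0.298 FPKM in normal ECs, 1.62, 2.36 and 2.06 FPKM in MMTV-PyMT ECs and 3.62, 4.81 and 3.27 FPKM in implanted ECs. The groups did not overlap, and the difference of 1.75 ± 0.18 (SE, limma adjusted p = 1.24e-06) in implanted ECs was 8.57 times by the means. All normal libraries of Birc5 were below 1 FPKM, so it was tested only because of its tumour libraries. Ube2c, the ubiquitin-conjugating enzyme of the anaphase promoting complex, was at 0.749, 0.713 and 0.497 FPKM in normal ECs, 1.999, 3.51 and 2.72 FPKM in MMTV-PyMT ECs and 3.17, 6.60 and 4.40 FPKM in implanted ECs, a difference of 1.16 (limma adjusted p = 0.000534) and 1.75 (limma adjusted p = 1.43e-05). Cdc20 was at 2.90, 4.74 and 4.001 FPKM in normal ECs, 13.1, 14.9 and 15.3 FPKM in MMTV-PyMT ECs and 9.34, 16.1 and 12.5 FPKM in implanted ECs, higher by 1.68 (limma adjusted p = 1.56e-05) and 1.47 (limma adjusted p = 6.56e-05). Kif23, a motor of cell division, was the gene that did not pass in MMTV-PyMT ECs, at 0.34 (limma adjusted p = 0.0919), with 0.68 (limma adjusted p = 0.00269) in implanted ECs.

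Replication genes differed less evenly. Rrm2, the small subunit of ribonucleotide reductase, was at 2.81, 3.96 and 3.03 FPKM in normal ECs, 16.6, 21.8 and 20.99 FPKM in MMTV-PyMT ECs and 11.1, 13.2 and 10.5 FPKM in implanted ECs. Tumour libraries lay far above normal ones, by 2.29 ± 0.22 (SE, limma adjusted p = 4.91e-07) in MMTV-PyMT ECs, the largest difference of the list there, and by 1.57 ± 0.22 (SE, limma adjusted p = 2.67e-05) in implanted ECs. Of the licensing and helicase genes, 7 of 9 were higher in each tumour type (29.8% and 25% of all genes), with median differences of 0.78 and 0.58. Among the 9, Cdc6 and Gins2 met the filter on low values only through tumour libraries. Mcm2, a helicase subunit, was at 3.31, 3.25 and 2.60 FPKM in normal ECs, 5.89, 7.10 and 7.23 FPKM in MMTV-PyMT ECs and 5.03, 5.76 and 4.36 FPKM in implanted ECs, without overlap and higher by 0.93 (limma adjusted p = 0.000173) and 0.58 (limma adjusted p = 0.00833). Mcm3 of the same ring did not pass in either, at 0.31 (limma adjusted p = 0.101) and 0.26 (limma adjusted p = 0.182). Pcna, the sliding clamp, was the most highly expressed gene of S phase and nearly level, at 30.8, 30.1 and 31.9 FPKM in normal ECs, 34.4, 33.6 and 35.2 FPKM in MMTV-PyMT ECs and 31.3, 32.9 and 32.2 FPKM in implanted ECs. Its libraries did not overlap between MMTV-PyMT and normal ECs, yet the difference was 0.15 ± 0.06 (SE, limma adjusted p = 0.0469), a call lost with quantile normalization, total-read scaling, voom weights, a replicate block or only the compared libraries, and in 14 of the 18 fits without a library. In implanted ECs it was 0.05 (limma adjusted p = 0.499).

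In G1, 1 gene of 4 was higher in each tumour type, against 29.8% and 25% of all genes. That gene, Ccne1, met the filter on low values only through tumour libraries, which favours higher values there. Ccne1, a cyclin of the G1 to S step, was at 0.445, 0.222 and 0.139 FPKM in normal ECs, 0.877, 2.01 and 1.45 FPKM in MMTV-PyMT ECs and 1.61, 2.16 and 1.33 FPKM in implanted ECs, so that the lowest tumour library was above the highest normal one, with differences of 0.93 ± 0.16 (SE, limma adjusted p = 0.000181) and 1.09 ± 0.16 (SE, limma adjusted p = 5.07e-05). Ccnd1, the cyclin that answers to growth factors, was high in all tissues at 36.5, 40.3 and 34.1 FPKM in normal ECs, 38.4, 45.2 and 42.5 FPKM in MMTV-PyMT ECs and 53.1, 51.4 and 39.97 FPKM in implanted ECs, with differences of 0.18 (limma adjusted p = 0.353) and 0.37 (limma adjusted p = 0.0719), which did not pass. Ccne2 and Cdk2 did not pass either.

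**Figure D3:**
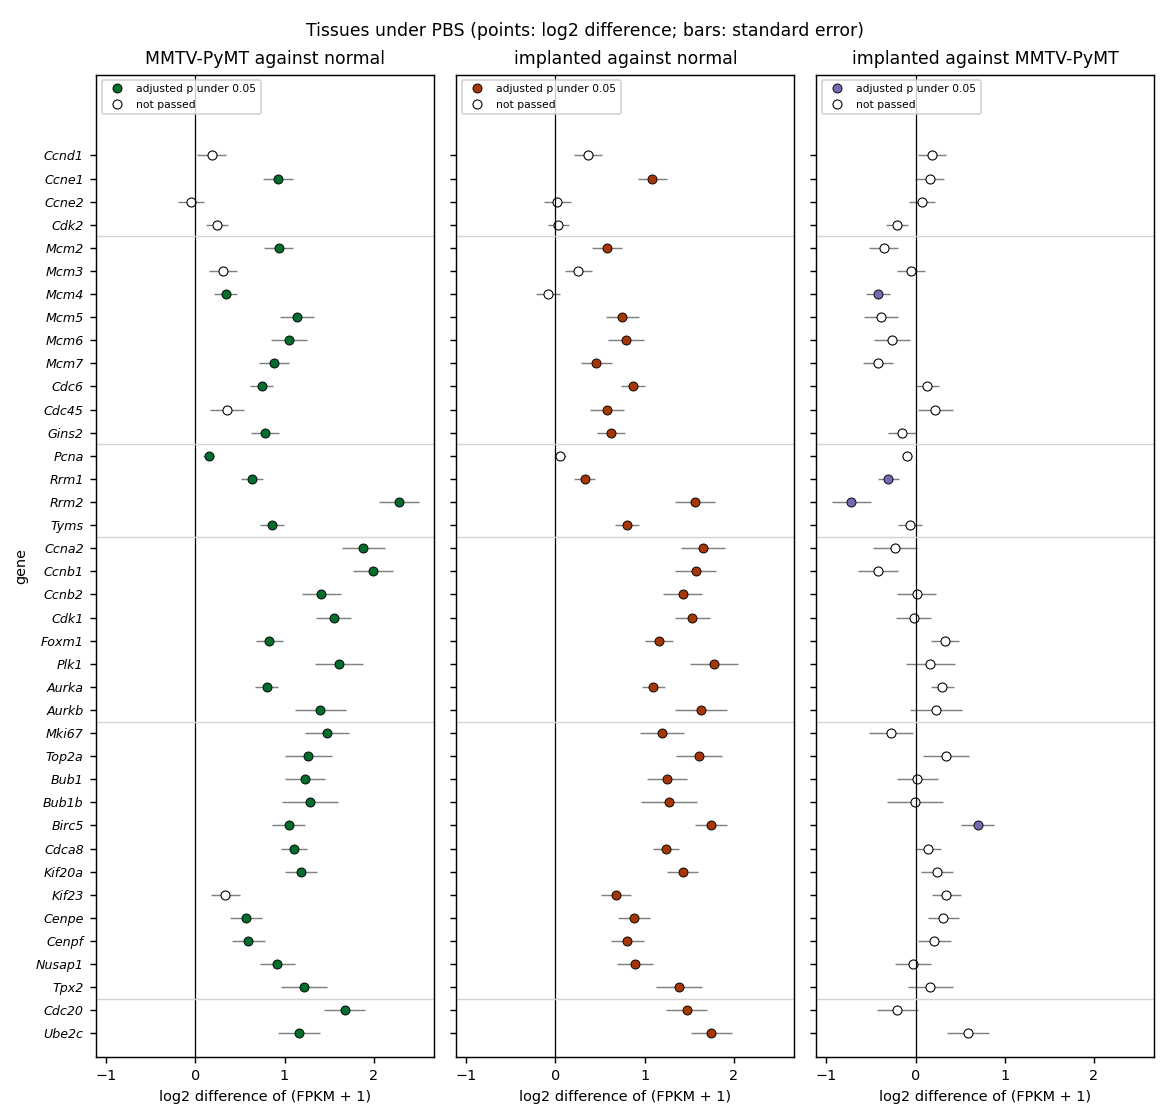
Log2 differences of (FPKM + 1) with standard errors for 39 genes (vertical axis) between tissues under PBS, in 3 panels, with filled points at an adjusted p under 0.05. Mitotic genes (lower part) lay between 0.34 and 1.99 to the right of 0 in both tumour types, and most differences between the tumour types lay near 0.

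Between the tumour types, 1 gene was higher in implanted than in MMTV-PyMT ECs and 3 were lower, against 20.8% and 24.6% of all genes tested. The split was 1 and 8 with total-read scaling (15.7% and 35.1% of all genes) and 3 and 3 with quantile normalization (20.3% and 25%). Birc5 was higher in implanted ECs by 0.70 ± 0.18 (SE, limma adjusted p = 0.00603), and all 3 implanted libraries were above all 3 MMTV-PyMT libraries. Rrm2 was lower, with a difference of -0.72 ± 0.22 (SE, limma adjusted p = 0.015), also without overlap. Mcm4, another helicase subunit, was at 15.2, 14.7 and 15.04 FPKM in MMTV-PyMT ECs and 12.8, 11.1 and 9.25 FPKM in implanted ECs, lower with -0.42 (limma adjusted p = 0.016). Rrm1, the large subunit of ribonucleotide reductase, was lower with -0.31 (limma adjusted p = 0.0466). None of the 4 reached 2-fold (4.28% of all genes higher and 3.05% lower). Without overlap, 4 genes were higher and 7 lower (27.5% and 30.9% of all genes). Epithelial markers were lower in implanted ECs for 6 of 8. Birc5 passed with each library left out, the other 3 genes did not.

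The second question was what cGAMP changed within 3 hours. In implanted ECs 16 of 39 genes fell and 2 rose, against 18.8% and 20.3% of all genes tested, and the median change of the list was -0.38 beside -0.01 over all genes. The libraries did not overlap for 16 genes that were lower (22.9% of all genes) and 3 that were higher (22.5%). By role, 2 of 4 genes fell in G1, 4 of 9 in licensing and helicase and 2 of 4 in clamp and nucleotides. In mitotic entry 2 of 8 fell, in chromosomes and spindle 5 of 12 and in mitotic exit 1 of 2, beside 18.8% of all genes. Rrm1, of clamp and nucleotides, fell with -0.32, a call lost in 13 of the 18 fits without a library. No change of the list reached 2-fold on the log2(FPKM + 1) scale, here (6.13% of all genes rose and 1.09% fell by that much), in normal ECs (3.02% and 0.687%) or in MMTV-PyMT ECs (2.49% and 0.0715%).

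Cdc20 was at 9.34, 16.1 and 12.5 FPKM under PBS and 5.63, 6.94 and 6.35 FPKM under cGAMP, so that every cGAMP library was below every PBS library. The change was -0.88 ± 0.23 (SE, limma adjusted p = 0.00646), the largest fall of the list, to 0.499 times by the means. Rrm2 was at 11.1, 13.2 and 10.5 FPKM under PBS and 5.44, 7.16 and 5.56 FPKM under cGAMP, a fall of similar size without overlap, -0.84 ± 0.22 (SE, limma adjusted p = 0.00689). Aurka, the kinase of the spindle poles, was at 5.33, 7.50 and 6.24 FPKM under PBS and 3.40, 3.38 and 3.28 FPKM under cGAMP and fell by 0.75 on the log2 scale (limma adjusted p = 0.000282), with cGAMP libraries close to each other. Birc5 was at 3.62, 4.81 and 3.27 FPKM under PBS and 1.37, 1.78 and 3.22 FPKM under cGAMP, lower in all 3 though close to overlap in library 3, with a change of -0.68 (limma adjusted p = 0.00812). Ccna2 was at 7.52, 11.04 and 8.50 FPKM under PBS and 4.45, 5.04 and 5.90 FPKM under cGAMP, without overlap and with a change of -0.70 (limma adjusted p = 0.0328). Cdca8, a partner of survivin, and the motors Kif20a and Kif23 fell as well, with changes of -0.57, -0.59 and -0.53. So did Cenpf, a kinetochore protein, with -0.61.

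Mki67, Cdk1, Ccnb1, Plk1 and Foxm1, common markers of cycling cells, did not pass in implanted ECs. Mki67 was at 7.45, 11.8 and 9.74 FPKM under PBS and 6.89, 8.78 and 8.93 FPKM under cGAMP, overlapping, with -0.20 ± 0.25 (SE, limma adjusted p = 0.555) and a 95% interval of -0.72 to 0.33. Cdk1 was at 4.92, 7.12 and 5.13 FPKM under PBS and 4.73, 4.39 and 5.29 FPKM under cGAMP, overlapping, with -0.20 (limma adjusted p = 0.442). Ccnb1 was at 2.97, 5.14 and 4.46 FPKM under PBS and 2.61, 2.76 and 3.77 FPKM under cGAMP and Plk1 at 7.01, 10.1 and 5.43 FPKM under PBS and 4.30, 6.001 and 6.52 FPKM under cGAMP, with changes of -0.35 (limma adjusted p = 0.249) and -0.34 (limma adjusted p = 0.339). Foxm1 was at 3.16, 5.005 and 4.15 FPKM under PBS and 4.36, 2.87 and 3.42 FPKM under cGAMP, with -0.16 (limma adjusted p = 0.434). All 5 fitted values were below 0.

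Of the 9 licensing and helicase genes 4 fell and none rose in implanted ECs. Mcm3 was at 12.3, 12.3 and 10.6 FPKM under PBS and 5.51, 8.998 and 6.14 FPKM under cGAMP, lower without overlap, with a change of -0.72 ± 0.15 (SE, limma adjusted p = 0.00163). Mcm2 was at 5.03, 5.76 and 4.36 FPKM under PBS and 2.53, 3.81 and 3.05 FPKM under cGAMP, also without overlap, with -0.56 (limma adjusted p = 0.0136). Mcm7 and Mcm4 fell with -0.72 (limma adjusted p = 0.00322) and -0.46 (limma adjusted p = 0.0119). Mcm5 did not pass at -0.45 (limma adjusted p = 0.0663). Mcm6 was at 11.95, 13.8 and 9.54 FPKM under PBS and 14.1, 14.4 and 15.03 FPKM under cGAMP, the cGAMP libraries all above the PBS libraries, but its change of 0.30 ± 0.20 (SE, limma adjusted p = 0.262), interval -0.13 to 0.72, did not pass. With scaling by total recovered reads its change was -0.00 and with quantile normalization 0.15, so its size depended on the scaling. In G1, Ccne2 and Cdk2 fell, with -0.52 (limma adjusted p = 0.0107) and -0.42 (limma adjusted p = 0.0122). Ccnd1 was at 53.1, 51.4 and 39.97 FPKM under PBS and 44.7, 36.3 and 31.98 FPKM under cGAMP, with -0.35 (limma adjusted p = 0.0986). Ccne1 was at 1.61, 2.16 and 1.33 FPKM under PBS and 1.80, 1.74 and 1.86 FPKM under cGAMP, with 0.06 (limma adjusted p = 0.788). Neither passed.

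A pair of genes rose in implanted ECs. Cenpe, the motor that brings chromosomes to the spindle equator, was at 1.75, 2.14 and 2.10 FPKM under PBS and 4.11, 4.08 and 5.47 FPKM under cGAMP, and the lowest cGAMP library was above the highest PBS library. The change was 0.88 ± 0.18 (SE, limma adjusted p = 0.000894), or 2.28 times by the means, and its sign was opposite to that of the other 11 genes of its role. Pcna was at 31.3, 32.9 and 32.2 FPKM under PBS and 45.3, 40.3 and 40.9 FPKM under cGAMP, without overlap, with 0.38 ± 0.06 (SE, limma adjusted p = 0.000118). Scaling by total reads moved the median of all genes from -0.01 to -0.25 in this comparison, and Pcna then did not pass (0.07), nor did it with quantile normalization (0.06). Under total-read scaling, Cenpe passed at 0.62 and the list held 1 rise and 24 falls, against 12.1% and 42.4% of all genes, with a median of -0.65.

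**Figure D4:**
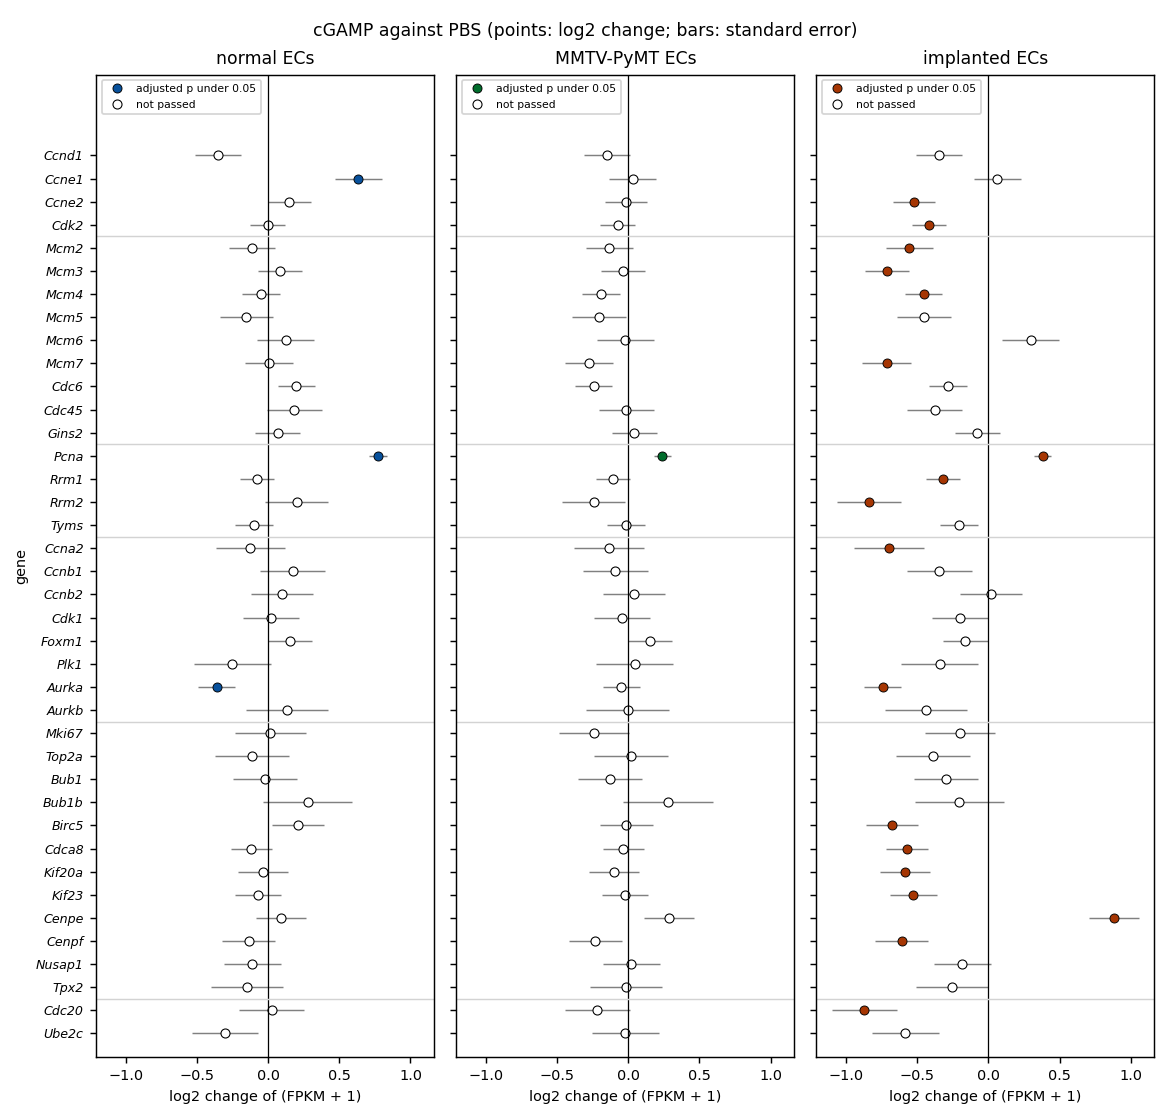
Log2 changes of (FPKM + 1) with standard errors for 39 genes (vertical axis) under cGAMP against PBS in 3 panels (normal, MMTV-PyMT and implanted ECs), with filled points at an adjusted p under 0.05. In implanted ECs 34 of 39 points lay below 0, in MMTV-PyMT ECs most points lay near 0, and Pcna was filled in all 3 panels.

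These counts rested in part on single libraries. Without implanted PBS library 2, the one with the highest mitotic genes, 8 genes fell (Aurka, Birc5, Cdc20, Cdca8, Mcm3, Mcm4, Mcm7 and Rrm2) and 2 rose, against 16% and 18.2% of all genes, at a median of -0.27. Without implanted cGAMP library 1, 9 fell and 2 rose, against 15.1% and 17%. The 8 genes Aurka, Cdc20, Cdca8, Cenpe, Mcm3, Mcm7, Pcna and Rrm2 passed with each library left out. Among the markers, 1 of 8 epithelial markers was lower under cGAMP (Cldn3), 3 of 8 mural and fibroblast markers were higher (Col1a1, Dcn and Lum), at sums of 436 to 445 FPKM under PBS and 397 to 879 FPKM under cGAMP, and 1 of 7 leukocyte markers was higher (Cd68), at sums of 26.2 to 64.4 and 44.9 to 213 FPKM. Their part in the falls was not tested. Mcm7, Kif20a and Cdc20 share exon bases with genes on the other strand (Ap4m1, Cdc23 and Elovl1) that fell too, and whether the counting used strand was not stated. Cenpe, Pcna and Rrm2 share none, though Pcna has pseudogenes that could take its reads.

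In normal ECs cGAMP changed few of these genes, with 2 that rose and 1 that fell, against 13.7% and 18.2% of all genes tested, and a median of 0.01 beside -0.04 over all genes. With quantile normalization 2 rose and 2 fell (15.5% and 20.4% of all genes). The same 2 genes were higher and 1 was lower without overlap (20.9% and 28% of all genes). Pcna was at 30.8, 30.1 and 31.9 FPKM under PBS and 53.03, 55.7 and 51.8 FPKM under cGAMP, far apart and with little spread, a change of 0.77 ± 0.06 (SE, limma adjusted p = 1.83e-07) or 1.73 times by the means. Ccne1 was at 0.445, 0.222 and 0.139 FPKM and 1.21, 0.634 and 1.07 FPKM, low under PBS and higher in all cGAMP libraries, with 0.63 ± 0.16 (SE, limma adjusted p = 0.00809). Aurka was at 2.34, 2.63 and 2.26 FPKM and 1.28, 1.93 and 1.78 FPKM, lower without overlap, with -0.36 ± 0.13 (SE, limma adjusted p = 0.0431). Pcna and Ccne1 passed with each library left out, whereas Aurka was lost in 8 of the 18 and with voom weights.

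Normal cGAMP library 2 set the picture for mitosis in this tissue. Mki67 was at 3.22, 4.88 and 2.87 FPKM under PBS and 2.23, 6.72 and 2.96 FPKM under cGAMP, with library 2 above all others and the groups overlapping, at 0.01 (limma adjusted p = 0.972). Plk1 was at 1.04, 2.19 and 1.18 FPKM and 0.516, 2.47 and 0.586 FPKM, of the same shape, at -0.25 (limma adjusted p = 0.515). Without that library 5 genes fell (Aurka, Ccna2, Ccnd1, Plk1 and Top2a) and 2 rose, against 15.3% and 11.4% of all genes, and the median was -0.24. Ccnb1 was at 0.497, 1.96 and 0.633 FPKM under cGAMP, Cdk1 at 0.955, 2.34 and 0.932 FPKM and Rrm2 at 2.65, 6.77 and 3.05 FPKM, each highest in library 2. Mcm2 at 2.31, 4.05 and 2.10 FPKM and Ccnd1 at 23.1, 38.9 and 26.1 FPKM followed it too, and so did Foxm1 at 1.29, 1.76 and 1.52 FPKM.

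In MMTV-PyMT ECs 1 gene rose and none fell, against 7.42% and 4.57% of all genes tested, and the median was -0.04, as over all genes. Pcna was at 34.4, 33.6 and 35.2 FPKM under PBS and 41.4, 39.8 and 40.98 FPKM under cGAMP, without overlap, with 0.24 ± 0.06 (SE, limma adjusted p = 0.0175) or 1.18 times by the means. The call was lost without MMTV-PyMT PBS library 2 or cGAMP library 3, and under total-read scaling (0.10) and quantile normalization (0.15). It was the only gene higher without overlap, and 6 were lower without overlap (14.8% and 18.6% of all genes). Mki67 was at 11.01, 13.3 and 11 FPKM and 10.1, 8.96 and 10.4 FPKM, with all cGAMP libraries below all PBS libraries, at -0.24 (limma adjusted p = 0.576). Rrm2 was at 16.6, 21.8 and 20.99 FPKM and 19.8, 13.96 and 16.2 FPKM, overlapping, at -0.24 (limma adjusted p = 0.518). Cdk1 was at 4.86, 5.55 and 6.30 FPKM under cGAMP, Ccnb1 at 6.15, 4.27 and 6.01 FPKM and Plk1 at 6.25, 7.18 and 6.42 FPKM, each overlapping its PBS libraries. Mcm2 at 6.21, 5.47 and 6.45 FPKM, Foxm1 at 3.85, 3.13 and 3.48 FPKM, Ccne1 at 1.46, 1.35 and 1.55 FPKM and Ccnd1 at 37.3, 36.98 and 38.9 FPKM did not pass either.

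**Figure D5:**
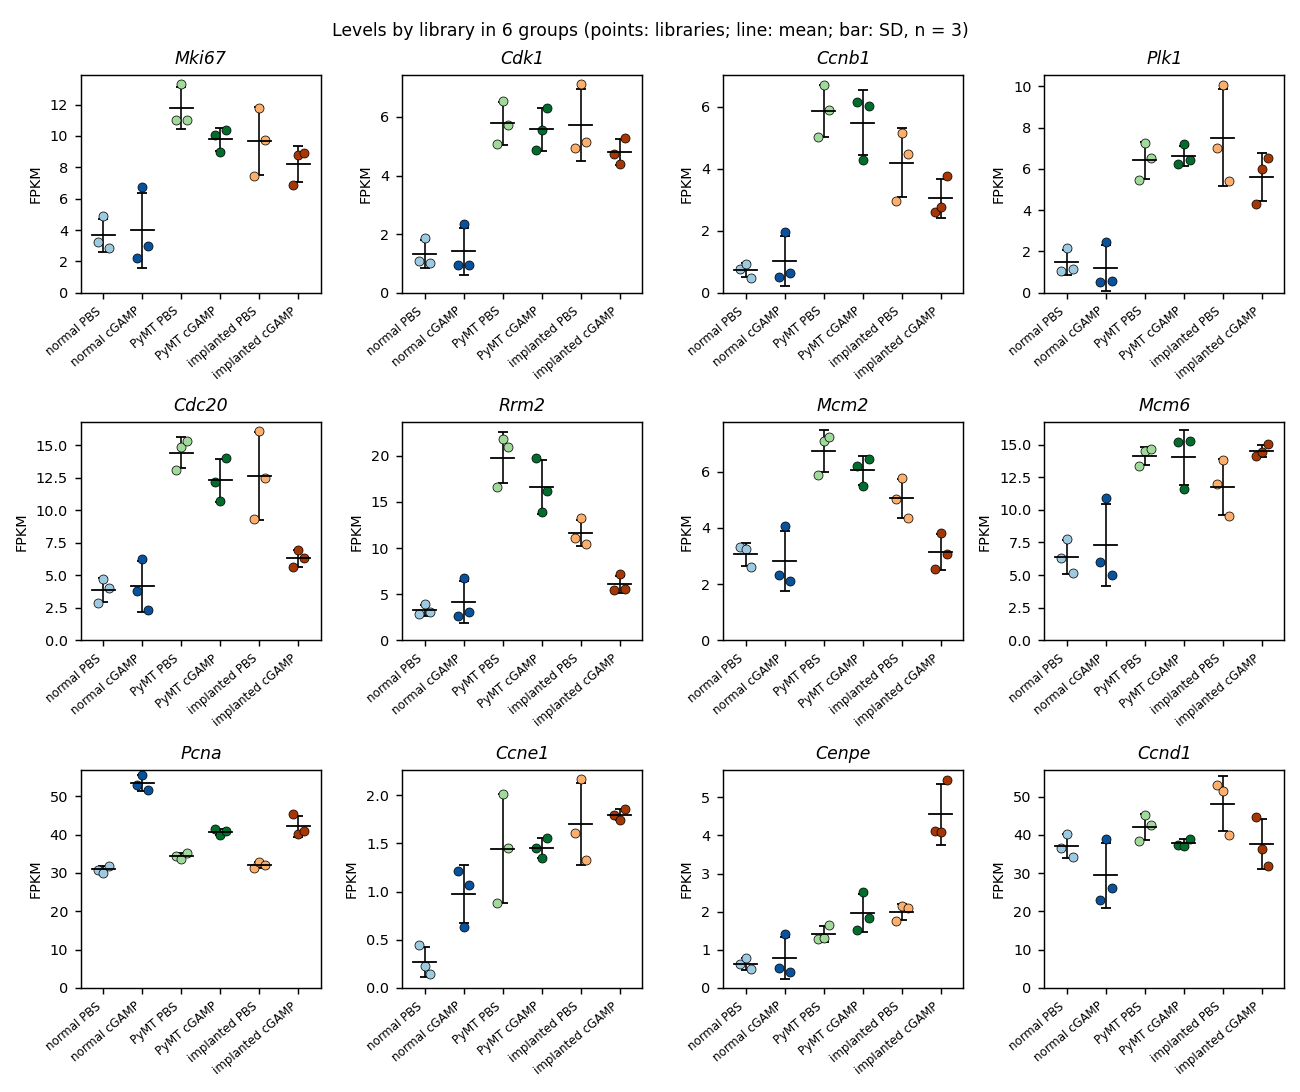
FPKM of 12 genes (vertical axes, from 0) in the 6 groups (horizontal axes), with points for libraries, lines for means and bars for SD (n = 3). Pcna was higher under cGAMP in each tissue, Cenpe was higher under cGAMP in implanted ECs, and Cdc20 and Rrm2 were lower there, while Mki67 and Cdk1 overlapped.

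The difference of the cGAMP changes between tissues was then tested itself. Between implanted and normal ECs 1 gene had a higher change and 6 a lower one, against 12.5% and 6.09% of all genes tested, and with total-read scaling none had a higher and 14 a lower change, against 6.44% and 18.4% of all genes. Rrm2 differed by -1.04 ± 0.31 (SE, limma adjusted p = 0.0297), with changes of -0.84 in implanted and 0.20 in normal ECs. Birc5 differed by -0.89 ± 0.26 (SE, limma adjusted p = 0.0259), where library values in normal ECs were 0.423, 0.644 and 0.298 FPKM under PBS and 0.693, 0.888 and 0.460 FPKM under cGAMP. Mcm3, with 9.23, 10.97 and 8.83 FPKM and 9.61, 13.2 and 8.44 FPKM in normal ECs, differed by -0.80 ± 0.22 (SE, limma adjusted p = 0.0175). Cenpe, with 0.619, 0.792 and 0.482 FPKM and 0.527, 1.40 and 0.416 FPKM in normal ECs, differed in the other direction, by 0.79 (limma adjusted p = 0.0365). Only the Rrm2 difference reached 2-fold, as did 0.937% of all genes with a lower and 3.75% with a higher change. Mcm7 and Ccne2 differed by -0.72 (limma adjusted p = 0.0458) and -0.67 (limma adjusted p = 0.0355). Pcna rose less in implanted than in normal ECs, with a difference of -0.39 (limma adjusted p = 0.00486), and less in MMTV-PyMT than in normal ECs, with -0.53 (limma adjusted p = 0.00239).

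Between MMTV-PyMT and normal ECs Pcna was the only gene to differ, with none higher and 1 lower (5.48% and 2.9% of all genes), below 2-fold (1.28% and 0.472%). Between implanted and MMTV-PyMT ECs the only one was Aurka, at 4.38, 5.87 and 4.63 FPKM under PBS and 4.41, 4.27 and 5.58 FPKM under cGAMP in MMTV-PyMT ECs, with -0.70 ± 0.18 (SE, limma adjusted p = 0.0221), none higher and 1 lower (7.34% and 3.72%), again below 2-fold (1.85% and 0.629%). Medians of the list were -0.40, -0.06 and -0.34 for implanted against normal, MMTV-PyMT against normal and implanted against MMTV-PyMT ECs, beside 0.04, 0.01 and 0.02 over all genes. Of the 7 differences between implanted and normal ECs, Mcm3 and Pcna passed with each library left out, and without normal cGAMP library 2 there were 1 higher and 3 lower (11.1% and 4.72% of all genes). Without implanted PBS library 2 there were none higher and 2 lower (11.2% and 5.11%). In a fit to the compared libraries only, Pcna alone of the 7 passed.

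Other genes of the pathway were followed in 4 wider lists with 148 listed genes in all: regulators, replication, mitosis, and p53 targets with growth arrest genes. The shares of all genes tested were, as above, 29.8% higher and 26.6% lower in MMTV-PyMT and 25% and 23.6% in implanted ECs. These lists went through the same filter on low values. How many of their genes met it only through tumour libraries was not counted, and such genes favour higher values in tumour ECs. In mitosis, 35 of 43 tested genes were higher and 1 lower in MMTV-PyMT than in normal ECs, and 38 higher and 2 lower in implanted ECs. Hmmr, a spindle protein, led in MMTV-PyMT ECs with 1.27 (limma adjusted p = 1.13e-05), and Anln, a scaffold of the cleavage furrow, in implanted ECs with 1.36 (limma adjusted p = 2.4e-05). In replication 24 of 44 were higher and 5 lower in MMTV-PyMT ECs, and 14 higher and 7 lower in implanted ECs, with Uhrf1, which carries DNA methylation through replication, at 1.57 (limma adjusted p = 5.63e-05) and 1.38 (limma adjusted p = 0.000223). E2f1, an activator of the early wave, was at 1.21, 1.74 and 1.02 FPKM in normal ECs, 2.36, 3.42 and 3.04 FPKM in MMTV-PyMT ECs and 3.80, 5.30 and 3.63 FPKM in implanted ECs, higher by 0.77 (limma adjusted p = 0.00268) and 1.17 (limma adjusted p = 9.29e-05).

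Among 38 regulators tested, 16 were higher in each tumour type (29.8% and 25% of all genes), and 11 were lower in MMTV-PyMT and 7 in implanted ECs (26.6% and 23.6%). Ccnd2, another D cyclin, was at 43.8, 38.8 and 46.5 FPKM in normal ECs, 8.59, 7.41 and 7.91 FPKM in MMTV-PyMT ECs and 4.02, 4.96 and 4.45 FPKM in implanted ECs, lower in both without overlap, with differences of -2.29 ± 0.15 (SE, limma adjusted p = 9.65e-09) and -3.01 ± 0.15 (SE, limma adjusted p = 5.4e-10). Cdkn2b, an inhibitor of the cyclin D kinases, was at 0.244, 0.425 and 0.199 FPKM in normal ECs, 0.813, 2.12 and 1.13 FPKM in MMTV-PyMT ECs and 5.70, 8.86 and 6.99 FPKM in implanted ECs, higher in implanted ECs by 2.65 (limma adjusted p = 4.79e-07). Its normal PBS libraries were all below 1 FPKM. The adaptor Cks2, a small subunit of cyclin-dependent kinases, was higher by 1.30 and 1.38.

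In implanted ECs 7 of 38 regulators rose under cGAMP and 12 fell, against 20.3% and 18.8% of all genes. Cdkn1a (p21), an inhibitor of cyclin-dependent kinases, was at 28.4, 30.3 and 35.03 FPKM under PBS and 203, 139 and 132 FPKM under cGAMP, all cGAMP libraries far above PBS, with 2.28 ± 0.17 (SE, limma adjusted p = 3.4e-08). It also rose in normal ECs, from 28.3, 33.3 and 39.6 FPKM to 74.8, 76.7 and 67.02 FPKM with 1.10 (limma adjusted p = 0.000207), and in MMTV-PyMT ECs, from 18.2, 12.9 and 12.4 FPKM to 33.2, 44.3 and 40.3 FPKM with 1.39 (limma adjusted p = 3.13e-05), without overlap in any tissue. Rbl1 (p107), a retinoblastoma family member and part of DREAM, was at 3.98, 3.75 and 4.19 FPKM under PBS and 17.4, 16.1 and 16.3 FPKM under cGAMP, with 1.82 (limma adjusted p = 8.49e-10), while in normal ECs it was at 4.38, 4.95 and 5.28 FPKM and 4.59, 4.51 and 3.53 FPKM, with -0.18 (limma adjusted p = 0.186). Ccnd2 was at 4.02, 4.96 and 4.45 FPKM under PBS and 18.6, 19.5 and 14.1 FPKM under cGAMP, with 1.74 (limma adjusted p = 1.7e-07). Cdkn2b and Cdc25a, a phosphatase that activates CDK2, fell with -1.14 (limma adjusted p = 0.0023) and -0.73 (limma adjusted p = 8.93e-05). E2f1 was at 3.80, 5.30 and 3.63 FPKM under PBS and 2.84, 3.69 and 1.91 FPKM under cGAMP and did not pass, at -0.47 (limma adjusted p = 0.0592).

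In replication 6 of 44 genes rose and 10 fell in implanted ECs, against 20.3% and 18.8% of all genes. Samhd1, an enzyme that breaks down deoxynucleotides, was at 20.7, 15.9 and 16.9 FPKM under PBS and 151, 123 and 125 FPKM under cGAMP, without overlap, with 2.84 ± 0.16 (SE, limma adjusted p = 1.24e-09). In normal ECs it was at 15.03, 15.9 and 17.2 FPKM and 37.3, 30.7 and 24.2 FPKM, with 0.88 (limma adjusted p = 0.000661). In MMTV-PyMT ECs it was at 8.27, 9.69 and 9.17 FPKM and 21.4, 31.2 and 31.96 FPKM, with 1.52 (limma adjusted p = 4.49e-06). Of the clamp loader, Rfc3 and Rfc5 rose in implanted ECs with 0.90 (limma adjusted p = 0.000198) and 0.81 (limma adjusted p = 1.32e-05), and Uhrf1 fell with -0.81 (limma adjusted p = 0.0156). In normal ECs 6 rose and 6 fell (13.7% and 18.2% of all genes), among them Fen1, the nuclease of Okazaki fragments, with 0.70 (limma adjusted p = 0.00475). In MMTV-PyMT ECs 1 rose (Samhd1) and none fell (7.42% and 4.57%).

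In mitosis 2 of 43 genes rose and 7 fell in implanted ECs (20.3% and 18.8% of all genes), the largest falls being Incenp, the scaffold of the passenger complex, with -0.72 (limma adjusted p = 0.00253), Cdca2 with -0.70 and Cdca3 with -0.69. In normal ECs 3 rose and 4 fell (13.7% and 18.2%), and in MMTV-PyMT ECs none did (7.42% and 4.57%). Of 20 p53 targets and growth arrest genes, 11 rose and 7 fell in implanted, 6 rose and 8 fell in normal and 5 rose and 6 fell in MMTV-PyMT ECs, beside the same shares of all genes. Gadd45b and Gadd45g, stress genes, rose in implanted ECs with 1.36 (limma adjusted p = 3.97e-05) and 1.20 (limma adjusted p = 5.33e-05), and Tob1 and Sesn1 fell with -1.18 and -0.73.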

How the data were processed

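The deposited table gives FPKM, that is, fragments per kilobase after scaling to library size, for 16248 genes in 18 columns, and each column is 1 library. Per the labels and the methods of the study, sorted ECs were sequenced with a directional kit, reads were checked with FastQC and aligned to mm10 with STAR 2.7, and HTSeq counted them per gene. How the FPKM values were made from these counts, and whether the counting used strand, was not given in the sources used here. Of the columns, 12 name a tumour type, and the other 6 were read as normal fat pad, the remaining tissue of the labels. No column was without a sample (0). A value at 0 occurred for 0 genes, so the table lists only genes detected in every library.

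Tests covered the 13983 genes that reached 1 FPKM in 3 or more libraries. Values were set to log2(FPKM + 1), which understates changes of genes with low values, and fitted with limma 3.58.1 in R 4.3.3 with 1 mean for each of the 6 groups over all 18 libraries. Tests were 2-sided, and a gene passed when its Benjamini-Hochberg adjusted p over all genes tested was under 0.05, with no limit on fold. FPKM values were whole multiples of a step for 98.50% of the 16012 genes with a length in GENCODE M21 (tolerance 0.05 reads), which gave 8916809 to 11852760 reads per library, a 1.33-fold range. These reads were used only for alternatives (limma's voom weights and another scaling). The alternatives also covered the pseudocount, the filter, quantile normalization, a replicate block, the libraries in the fit, a fold limit and each library left out in turn. The fit was tested on simulated data.

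The 40 genes, their roles, the wider lists and the marker lists were chosen with earlier results of these data known. Values per library are given for Mki67, Cdk1, Ccnb1, Plk1, Mcm2, Pcna, Rrm2, Ccne1, Ccnd1, Foxm1 and, in each comparison, for up to 3 genes with the largest change among those that passed, and from each wider list for up to 3 genes in each direction plus Cdkn1a, E2f1 and Samhd1. Other genes of the list are named by role. Promoter letters were taken from RefSeq windows (build GRCm38.p6, 250 bases before to 50 bases after a start). Python 3 scripts did the joins and figures.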

Additional observations from a re-analysis of the deposited data

Results flagged for a closer look

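In 9 cases the cGAMP change of a gene differed between tissues by limma's test of the difference itself. Between implanted and normal ECs, 7 genes differed on the log2(FPKM + 1) scale, namely Rrm2 (-1.04), Birc5 (-0.89), Mcm3 (-0.80), Mcm7 (-0.72), Ccne2 (-0.67), Pcna (-0.39) and Cenpe (0.79). For Pcna the change in MMTV-PyMT ECs minus that in normal ECs was -0.53. For Aurka the change in implanted ECs minus that in MMTV-PyMT ECs was -0.70. Of the 7, all but Pcna did not pass in a fit to the compared libraries only. The Cenpe difference did not pass either with a pseudocount of 0.1, with total-read scaling or with voom weights, the Birc5 difference with voom weights, and the Mcm7 difference without the filter on low values. Among the 18 fits that each left out a library, Mcm7 was lost in 11, Cenpe in 8, Ccne2 in 7, Birc5 in 6, Rrm2 in 5 and Aurka in 4, and the Mcm3 difference and both Pcna differences in none. Groups had 3 libraries, so no library was tested as an outlier of its group.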

How the results depend on the processing

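The alternatives were recomputed for 54 pairs of a gene and a comparison that passed. None of these changed direction, while 169 of the recomputed values no longer passed and 1258 still did. Many of these refits could not change direction, because they kept the same log2 change. They were the fits without the filter, with a block, with only the compared libraries, with a fold limit or without a library of another group. The pairs were also chosen because they had passed. Named genes that did not pass, such as Mcm6, were not among the 54. Genes of the list that passed, higher and lower together, numbered 3, 1 and 18 for cGAMP in normal, MMTV-PyMT and implanted ECs and 33, 33 and 4 for MMTV-PyMT against normal, implanted against normal and implanted against MMTV-PyMT ECs under PBS. For the differences of the cGAMP change they numbered 1 (MMTV-PyMT minus normal), 7 (implanted minus normal) and 1 (implanted minus MMTV-PyMT). With each library left out in turn, the counts in the same order ranged from 2 to 7, 0 to 1, 10 to 20, 30 to 34, 30 to 34, 1 to 7, 1 to 2, 2 to 9 and 0 to 2. The shares of all genes in the main fit are given with each comparison above. Testing only genes with a mean of at least 5 FPKM kept 14 of the 39 genes, and the counts fell to 1 in normal and 8 in implanted ECs under cGAMP, and to 12 and 10 for tumour against normal ECs, because fewer genes were tested. The shares of all genes, higher and lower, were then 16.4% and 22.7%, 27% and 20.7%, 39.9% and 25.8%, and 35.1% and 24.8%. A fold limit of 2 left 0 genes in all 3 cGAMP comparisons, 19, 20 and 0 between tissues, and 0, 1 and 0 for the differences. Quantile normalization gave 0 for cGAMP in MMTV-PyMT ECs (7.11% of all genes higher and 7.28% lower) and 2 for implanted minus MMTV-PyMT (5.47% and 5.88%). Total-read scaling gave 0 and 2 there, 14 for implanted minus normal and 9 for implanted against MMTV-PyMT ECs, with a median of -0.65 for cGAMP in implanted ECs, where it moved the median of all genes to -0.25 (-0.14 for cGAMP in MMTV-PyMT ECs, -0.13 for implanted against normal and against MMTV-PyMT ECs, -0.19 for implanted minus normal and -0.11 for implanted minus MMTV-PyMT). For these 4 counts the shares of all genes, higher and lower, were 6.54% and 17.2%, 4.59% and 7.72%, 6.44% and 18.4%, and 15.7% and 35.1%. Voom weights gave 2 for implanted minus MMTV-PyMT (6.63% and 4.12% of all genes). Fits to the compared libraries only gave 0 for cGAMP in MMTV-PyMT ECs, 1 for implanted minus normal and 8 for implanted against MMTV-PyMT ECs, and the cause of these changes was not tested. The shares of all genes in those fits were 7.12% and 3.93%, 10.7% and 4.57%, and 22.7% and 24.9%.

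With the replicate number as a block the counts were 3, 1 and 20 for cGAMP, 32, 33 and 7 between tissues and 1, 8 and 2 for the differences. The shares of all genes, higher and lower, were 13% and 17.1%, 6.74% and 3.87%, and 19.5% and 18.1% for cGAMP. Between tissues they were 29.5% and 25.9%, 24.5% and 23.1%, and 20.3% and 23.7%. For the differences they were 4.47% and 2.35%, 11.6% and 5.48%, and 6.82% and 3.36%. Over all genes tested, 8 of 45 same-numbered pairs correlated above 0.1 (r of -0.35 to 0.29). These values cannot exclude shared experiments, because it was not stated whether the numbers mark them. A library was closest to its own number in 29 of 90 pairings. For the list, library 2 was the highest of 3 for 31, 36, 25 and 35 of 39 genes in normal PBS, normal cGAMP, MMTV-PyMT PBS and implanted PBS. The shares of all genes were 30.2%, 36.9%, 33.6% and 35.4%. In MMTV-PyMT cGAMP and implanted cGAMP library 2 was the highest for 6 and 14 (32.8% and 33.6% of all genes). An effect of a shared experiment on these genes was not tested. Depth limits low genes, for which 1 read on 1 kb was worth 0.0753 to 0.1196 FPKM and the smallest count was 3 reads.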

Other observations

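Several genes of the list share exon bases with a gene on the other strand (11 of 39), and both partners did not always move together in implanted ECs under cGAMP. Ap4m1, the partner of Mcm7, changed by -0.69, Cdc23, the partner of Kif20a, by -0.58, and Elovl1, the partner of Cdc20, by -0.41. Ints8, the partner of Ccne2, changed by 0.39 while Ccne2 itself changed by -0.52, and Gse1, the partner of Gins2, by 0.56. Named pseudogenes exist for 4 genes of the list (Pcna, Tyms, Ccnb1 and Ccnb2), so reads of these genes could be split between copies.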
